A study of Mus musculus with 12 samples.

Results

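The Cyp4 genes encode cytochrome P450 enzymes, most of which hydroxylate the omega end of a fatty acid chain. Here, 10 Cyp4 genes of mouse liver were followed through calorie restriction (CR). They were taken by gene symbol from the expression table, with earlier results of these data known. Of 24537 genes listed, they were 6 Cyp4a genes (Cyp4a10, Cyp4a12a, Cyp4a12b, Cyp4a14, Cyp4a31 and Cyp4a32), 3 Cyp4f genes (Cyp4f13, Cyp4f14 and Cyp4f15) and Cyp4v3. All 10 were among the 10593 genes that were tested, which reached an FPKM of 1 in 3 or more libraries. FPKM counts sequenced fragments per kilobase of transcript, scaled to the reads of the library. It adjusts for transcript length and read total, but not for shifts in the make-up of the RNA or for reads shared by near copies. With median-ratio scaling the median log2 fold change of all genes at day 30 was -0.003, against -0.068 without it.

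The libraries came from the livers of 12 male C57Bl/6J mice that were 6 weeks old at the start, housed individually and not genetically altered. Con mice ate the NIH41 diet without restriction, and CR mice received 30% less, as the fortified NIH41 diet, in a single daily portion at noon. Livers were taken at day 25 or day 30, with 3 mice for each diet and day and a library for each mouse. Mice in the study were also given heavy water for the last days of life. The hour of tissue collection relative to the meal is not given in the sources used here, so restriction and the time since feeding cannot be told apart. The read totals to which FPKM was scaled, recovered from the FPKM values, were 15748721 to 23345540 per library. The summed FPKM of 6 hepatocyte markers was between 38895 and 64339 in every library, while 3 kidney tubule markers summed to at most 0.049.

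Omega-hydroxylation is a side route of fatty acid breakdown, in which the far end of the chain is oxidized in the endoplasmic reticulum and the resulting dicarboxylic acid is shortened in peroxisomes. Cyp4a10 and Cyp4a14 are classical targets of PPAR-alpha, the nuclear receptor that responds to fatty acids in fasting, while Cyp4a12a, an enzyme that converts arachidonic acid to the vasoactive lipid 20-HETE, is known as an androgen-dependent gene of male mice. Cyp4f enzymes also act on eicosanoids, and Cyp4f14 hydroxylates leukotriene B4. Cyp4v3 is the mouse counterpart of human CYP4V2, the gene of Bietti crystalline dystrophy, an eye disease.

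The 6 Cyp4a genes lay in a row on chromosome 4 (mm10, chr4:115299046-115622366, 323.3 kb), and the table held no gene of another family in between. Cyp4a12a (chr4:115299046-115332815) and Cyp4a12b (chr4:115411624-115439034) came first, followed by Cyp4a14 (chr4:115486200-115496141, the only gene of the 6 on the minus strand), Cyp4a10 (chr4:115518287-115533649), Cyp4a31 (chr4:115563649-115579015) and Cyp4a32 (chr4:115600938-115622366). The 3 Cyp4f genes lay on chromosome 17, with Cyp4f15 on the plus strand (chr17:32685631-32703352) and Cyp4f14 (chr17:32905070-32917329) and Cyp4f13 (chr17:32924688-32947361) on the minus strand. Cyp4v3 lay alone on chromosome 8 (chr8:45305802-45333196).

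Because several of these genes are near copies, their coding sequences were compared before their levels were read. The coding bases of Cyp4a12a and Cyp4a12b were 98.5% identical (23 differences in 1527), and those of Cyp4a10 were 97.2% identical to Cyp4a32. Over the 1332 coding bases of the Cyp4a31 transcript used, Cyp4a10 was 96.3% identical to it. Cyp4a14 was 76.8% identical to Cyp4a10 and 75.8% to Cyp4a12a. The following 60 coding bases begin the exon that holds the codon of the haem-binding cysteine. They are shown because they hold that codon (bases 5 to 7, tgc) in each gene printed. It was not located in the Cyp4a31 coding sequence used, and in Cyp4v3 it lay at bases 174 to 176 of its exon. Capitals mark bases that differ from Cyp4a12a. The sequences come from GENCODE M21 transcripts on GRCm38, the assembly that mm10 also names.
Cyp4a12a: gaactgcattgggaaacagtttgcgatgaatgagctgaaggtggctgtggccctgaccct
Cyp4a12b: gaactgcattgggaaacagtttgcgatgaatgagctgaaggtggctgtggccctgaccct
Cyp4a14: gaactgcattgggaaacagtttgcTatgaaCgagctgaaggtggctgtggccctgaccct
Cyp4a10: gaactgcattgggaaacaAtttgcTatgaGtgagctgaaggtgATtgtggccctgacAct
Cyp4a32: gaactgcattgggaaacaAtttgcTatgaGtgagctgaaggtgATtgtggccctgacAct
Cyp4f14: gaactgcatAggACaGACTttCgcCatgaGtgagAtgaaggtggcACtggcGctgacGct
Cyp4a12a (chr4:115331834-115331893, plus strand) and Cyp4a12b (chr4:115438057-115438116, plus strand) were the same at every base here, and so were Cyp4a10 (chr4:115532531-115532590, plus strand) and Cyp4a32 (chr4:115621434-115621493, plus strand). Cyp4a14 (chr4:115487252-115487311, minus strand) differed from Cyp4a12a at 2 bases, and Cyp4f14 (chr17:32905619-32905678, minus strand) at 15.

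The bases that tell the near copies apart are few. The next window is the one, inside a single exon, in which Cyp4a12a and Cyp4a12b differed most, and capitals mark bases that differ from Cyp4a12a.
Cyp4a12a: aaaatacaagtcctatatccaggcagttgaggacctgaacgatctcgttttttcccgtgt
Cyp4a12b: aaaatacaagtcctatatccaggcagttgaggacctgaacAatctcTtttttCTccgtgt
These 60 bases lie at chr4:115326628-115326687 in Cyp4a12a and chr4:115432881-115432940 in Cyp4a12b, both on the plus strand, and held 4 of the 23 differences. The corresponding window for Cyp4a10 and Cyp4a32 is set out with the aligned bases of Cyp4a31, with capitals where a base differs from Cyp4a10.
Cyp4a10: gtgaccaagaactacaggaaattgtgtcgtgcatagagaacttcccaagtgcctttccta
Cyp4a32: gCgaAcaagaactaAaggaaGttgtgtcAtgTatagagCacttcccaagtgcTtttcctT
Cyp4a31: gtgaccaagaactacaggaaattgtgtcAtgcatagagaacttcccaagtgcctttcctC
They lie on the plus strand at chr4:115519640-115519699 in Cyp4a10, chr4:115602270-115602329 in Cyp4a32 and chr4:115565020-115565079 in Cyp4a31.

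Libraries were read as pairs of 100 bases, so the share of 100-base windows that a transcript has in common with another gene measures how much of it single reads cannot assign. Of the windows of Cyp4a12a, 35.8% occurred base for base in Cyp4a12b, and 36.2% of those of Cyp4a12b occurred in Cyp4a12a, with a longest shared run of 401 bases. The share was 20.1% for Cyp4a32, 12.7% for Cyp4a10 and 4.05% for Cyp4a31, all within these 3 genes. It was 0% for Cyp4a14, Cyp4f13, Cyp4f14 and Cyp4f15. Cyp4v3 shared 5.77% of its windows with Gm45753, a gene model on the same strand whose exons overlap its own. These shares describe GENCODE transcripts, whose lengths differ from the exon lengths behind the FPKM. The transcript had 1530 bases against 1899 for Cyp4a32, and 3808 against 2917 for Cyp4v3. For Cyp4f15 the longest coding transcript was taken, without a RefSeq match. How reads that match several genes were counted is not given in the sources used here, so values within a group of near copies are uncertain, and sums over each group are given beside them.

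Cyp4a14 and Cyp4a10 made up most of the Cyp4 mRNA. In Con mice at day 25 the mean FPKM was 840.0 ± 469 for Cyp4a14 and 586 ± 160 for Cyp4a10 (SD, n = 3 in each group), followed by Cyp4v3 (154 ± 21.7), Cyp4f15 (62.6 ± 7.86), Cyp4a12a (54.1 ± 11.3), Cyp4f14 (48.6 ± 8.94), Cyp4f13 (35.5 ± 5.97), Cyp4a12b (22.5 ± 2.96), Cyp4a32 (18.2 ± 4.33) and Cyp4a31 (7.97 ± 2.88). Neighbours in this order whose mice overlapped were Cyp4a14 and Cyp4a10, Cyp4f15 and Cyp4a12a, Cyp4a12a and Cyp4f14, Cyp4f14 and Cyp4f13, and Cyp4a12b and Cyp4a32. Cyp4a14, Cyp4a10 and Cyp4v3 held the first 3 places in all 4 groups. Cyp4a12a was in place 5 and place 4 in Con mice at days 25 and 30 and in place 7 in CR mice at both days, while Cyp4a12b went from places 8 and 7 in Con mice to place 10 in CR mice.

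**Figure D1:**
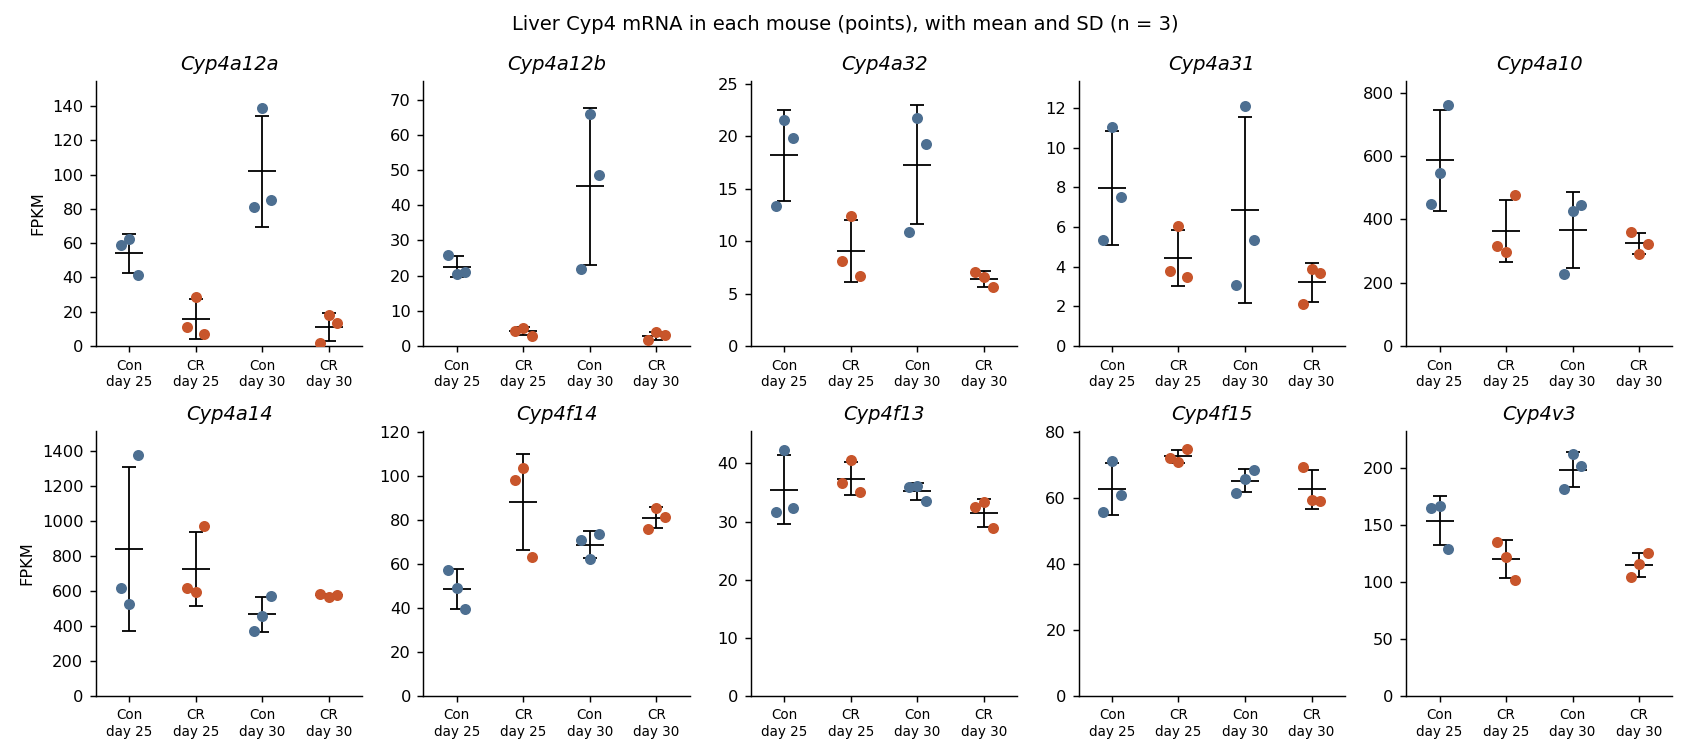
FPKM of each Cyp4 gene (vertical axes, from 0 and scaled per gene) in the 4 groups, with a point for each mouse and the mean and SD as black bars (n = 3). At each day, the CR points of Cyp4a12a, Cyp4a12b and Cyp4a32 lie below all Con points of the same day, and those of Cyp4f14 lie above them.

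The first question was whether CR changed these genes at day 25. CR mice had less Cyp4a12a and Cyp4a12b mRNA. Of the 10 genes, these 2 passed both thresholds used here (a Benjamini-Hochberg adjusted p under 0.1 from limma and at least 1 on the log2 scale) in the lower direction and 0 passed in the higher direction, where 0.642% and 0.84% of all genes tested were called lower and higher. Judged by the adjusted p alone, 3 genes were lower and 1 was higher, beside 9.34% and 5.6% of all genes. The groups did not overlap for the same 3 lower genes (Cyp4a12a, Cyp4a12b and Cyp4a32) and for Cyp4f14, which was higher, beside 18% and 10.2% of all genes in those directions. The median log2 fold change of the 10 genes was -0.52, and that of all genes tested was -0.039.

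At day 30 CR mice again had less Cyp4a12a and Cyp4a12b mRNA, and also less Cyp4a32 mRNA. These 3 genes passed both thresholds in the lower direction and 0 in the higher direction, where 1.28% and 0.925% of all genes were called. Judged by the adjusted p alone, 4 genes were lower, with Cyp4v3 as the fourth, and 0 were higher, beside 16.4% and 8.33% of all genes. No overlap between groups was seen for 5 lower genes (the same 4 and Cyp4f13) and for Cyp4f14, which was higher, beside 24.3% and 12.1% of all genes. The median log2 fold change was -0.45, and that of all genes tested was -0.068.

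**Figure D2:**
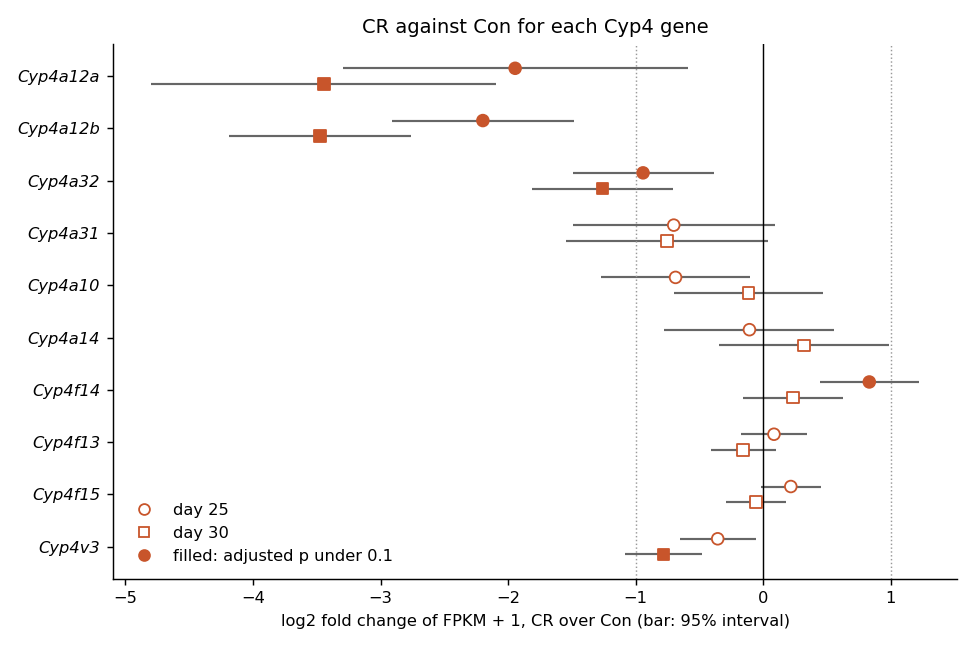
Log2 fold change of FPKM + 1 in CR over Con mice (horizontal axis) for each Cyp4 gene at day 25 (circles) and day 30 (squares), with 95% intervals from limma and dotted lines at a 2-fold change. Filled symbols passed an adjusted p of 0.1, which at both days held for Cyp4a12a, Cyp4a12b and Cyp4a32.

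Cyp4a12a, the 20-HETE synthase, had an FPKM of 58.9, 62.3 and 41.2 in the Con mice at day 25 and of 11.1, 28.8 and 6.77 in the CR mice. At day 30 it was 81.0, 139 and 85.3 in Con and 1.75, 18.1 and 13.6 in CR. All CR mice were below all Con mice at each day, and CR mouse 1 of day 30 was lower than any other. The Con mean was 3.48 times the CR mean at day 25 and 9.13 times at day 30. In limma its log2 fold change was -1.95 (SE 0.62, adjusted p = 0.072) at day 25 and -3.45 (SE 0.62, adjusted p = 0.00351) at day 30. At day 25 the call was lost without Con mouse 1, 2 or 3 or CR mouse 1 or 3 (adjusted p of 0.166, 0.152, 0.11, 0.166 and 0.228) and without the filter on low values (adjusted p = 0.154), while the log2 fold change stayed between -2.49 and -1.52 over all alternatives. At day 30 the log2 fold change was -2.58 without CR mouse 1 (adjusted p = 0.00636 from limma).

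Cyp4a12b, its near copy, had an FPKM of 25.9, 20.6 and 21.0 in Con and 4.38, 5.17 and 2.99 in CR at day 25. At day 30 it was 21.7, 65.9 and 48.6 in Con and 1.78, 3.93 and 3.00 in CR. The groups did not overlap at either day, and the Con mice of day 30 spread over a wide range. Con was 5.39 and 15.6 times CR at the 2 days. The log2 fold change was -2.20 (SE 0.33, adjusted p = 0.00237 from limma) at day 25 and -3.47 (SE 0.33, adjusted p = 6.95e-05) at day 30, and the adjusted p stayed at or under 0.0129 in every alternative at both days. The CR values of day 30 rested on 99 to 182 reads per library for Cyp4a12b and on 98 to 848 for Cyp4a12a.

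FPKM was also summed over Cyp4a12a and Cyp4a12b. Such a sum depends little on how shared reads were divided between them if each was counted once, which is not known here. The sum was 84.8, 82.9 and 62.3 in Con and 15.5, 34.0 and 9.76 in CR at day 25. At day 30 the sum was 103, 205 and 134 in Con and 3.53, 22.0 and 16.6 in CR. The groups remained apart, with a Con mean 3.88 and 10.5 times the CR mean. The ratio of Cyp4a12a to Cyp4a12b varied from 1.76 to 5.57 over 11 mice and was 0.979 in CR mouse 1 of day 30.

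Cyp4a32 was at 13.3, 21.5 and 19.8 in Con and 8.15, 12.4 and 6.73 in CR at day 25, and at 10.9, 21.8 and 19.2 in Con and 7.07, 6.55 and 5.59 in CR at day 30. CR mice were below Con mice at both days, with less room at day 25. Its log2 fold change was -0.94 (SE 0.25, adjusted p = 0.0383 from limma) at day 25, under the minimum fold, and -1.26 (SE 0.25, adjusted p = 0.00635) at day 30. At day 25 the adjusted p rose to between 0.109 and 0.138 without Con mouse 2 or 3 or CR mouse 1 or 3. Both thresholds were passed there with a pseudocount of 0.1 (-1.01), with voom (-1.05) and without Con mouse 1 (-1.14) or CR mouse 2 (-1.17). Reads of this gene could be shared with Cyp4a10, the far more abundant near copy.

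Cyp4a31 was low in all groups, at 5.33, 11.0 and 7.53 in Con and 3.80, 6.05 and 3.47 in CR at day 25, and at 3.07, 12.1 and 5.36 in Con and 2.10, 3.89 and 3.68 in CR at day 30. The groups overlapped at both days. The log2 fold change of -0.70 at day 25 (adjusted p = 0.256 from limma) and -0.75 at day 30 (adjusted p = 0.179) did not pass at either day. The latter became -1.14 (adjusted p = 0.0526) without the Con mouse of day 30 at 3.07, and -0.30 (adjusted p = 0.561) without the Con mouse at 12.1, and 1 of 23 alternatives had an adjusted p under 0.1.

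Cyp4a10, a standard readout of PPAR-alpha activity, was at 450, 545 and 763 in Con and 317, 295 and 476 in CR at day 25. At day 30 it was at 226, 425 and 446 in Con and 359, 291 and 323 in CR. At day 25 only the highest CR mouse reached into the Con range, whereas at day 30 all CR mice lay within it. Neither difference passed the test, with a log2 fold change of -0.69 at day 25 (95% interval -1.27 to -0.10, adjusted p = 0.134 from limma) and -0.12 at day 30 (-0.70 to 0.47, adjusted p = 0.800). At day 25 the adjusted p was 0.0783 with the replicate block, still under the minimum fold, and ranged from 0.0676 to 0.364 over all alternatives. The sum of Cyp4a10, Cyp4a31 and Cyp4a32, most of which was Cyp4a10, overlapped between groups at both days, with Con at 1.63 and 1.17 times CR.

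Cyp4a14, the most abundant of the genes, was at 615, 525 and 1379 in Con and 619, 592 and 971 in CR at day 25, and at 373, 454 and 573 in Con and 579, 567 and 577 in CR at day 30. Con mouse 3 and CR mouse 3 of day 25 stood above all others. The CR mice of day 30 differed by little (coefficient of variation 1.1%) and lay close to the highest Con mouse. The log2 fold change was -0.11 at day 25 (95% interval -0.77 to 0.56, adjusted p = 0.868 from limma) and 0.32 at day 30 (-0.34 to 0.99, adjusted p = 0.496). Leaving out Con mouse 3 of day 25 turned that estimate to 0.32 (adjusted p = 0.449).

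**Figure D3:**
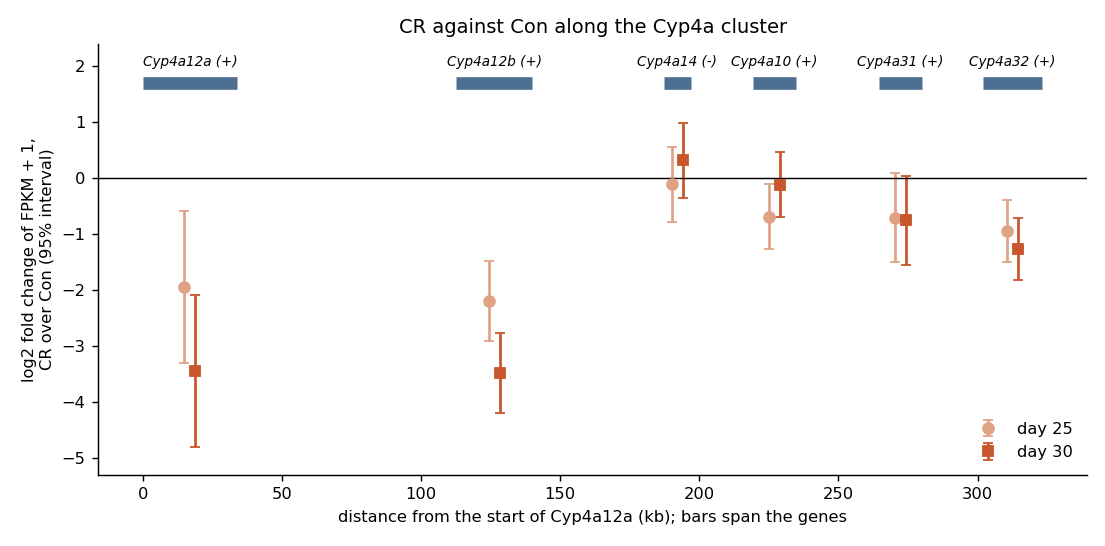
Log2 fold change of FPKM + 1 in CR over Con mice (vertical axis, with 95% intervals) for the 6 Cyp4a genes, placed by distance in kb from the start of Cyp4a12a, at day 25 (circles) and day 30 (squares), with blue bars for the span of each gene and its strand. The Cyp4a12 genes at the left end had the lowest values, Cyp4a14 and Cyp4a10 the values nearest 0 at day 30, and Cyp4a32 at the right end lay at -1.26 at day 30.

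Cyp4f14, the leukotriene B4 hydroxylase, was at 57.3, 49.0 and 39.5 in Con and 98.3, 104 and 63.1 in CR at day 25. At day 30 it was at 70.9, 62.1 and 73.7 in Con and 76.1, 85.7 and 81.4 in CR. All CR mice were above all Con mice at each day, and the gap was narrow at day 30. The CR mean was 1.82 and 1.18 times the Con mean. This gave a log2 fold change of 0.83 (SE 0.18, adjusted p = 0.0142 from limma) at day 25, under the minimum fold, and 0.23 (SE 0.18, adjusted p = 0.394) at day 30. At day 25 the adjusted p stayed at or under 0.06 in every alternative.

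Its neighbours Cyp4f13 and Cyp4f15 did not pass the test at either day. Cyp4f13 was between 31.7 and 42.4 in Con and 35.1 and 40.5 in CR at day 25, and between 33.6 and 36.1 in Con and 28.9 and 33.3 in CR at day 30, where the groups were apart and the log2 fold change was -0.16 (95% interval -0.41 to 0.10, adjusted p = 0.385 from limma). Cyp4f15 lay between 55.7 and 74.8 over all mice. Its log2 fold change was 0.22 at day 25 (-0.02 to 0.45, adjusted p = 0.241) and -0.06 at day 30 (-0.30 to 0.18, adjusted p = 0.747), so that a change of 2-fold in either direction lay outside the interval at both days.

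Cyp4v3 was at 165, 167 and 129 in Con and 135, 122 and 102 in CR at day 25, and at 182, 213 and 202 in Con and 104, 116 and 126 in CR at day 30. The groups overlapped at day 25 and were well apart at day 30, where the Con mean was 1.72 times the CR mean. Its log2 fold change was -0.36 (SE 0.14, adjusted p = 0.13 from limma) at day 25 and -0.78 (SE 0.14, adjusted p = 0.00315) at day 30. The adjusted p at day 25 was 0.0545 with the replicate block and 0.383 without CR mouse 3, and it was under 0.1 in 3 of 23 alternatives. The adjusted p at day 30 stayed at or under 0.0175 in every alternative.

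With both days in a single model and day as a covariate, the same 3 genes passed both thresholds in the lower direction (0.84% of all genes did so). The log2 fold change was -2.84 for Cyp4a12b (SE 0.28, adjusted p = 2.4e-05 from limma), -2.70 for Cyp4a12a (SE 0.47, adjusted p = 0.00111) and -1.10 for Cyp4a32 (SE 0.18, adjusted p = 0.000659). Judged by the adjusted p alone, 5 genes were lower, with Cyp4v3 at -0.57 (SE 0.11, adjusted p = 0.00198) and Cyp4a31 at -0.73 (SE 0.25, adjusted p = 0.041), and Cyp4f14 was higher at 0.53 (SE 0.15, adjusted p = 0.0155). These shares stood beside 26.1% lower and 14.5% higher of all genes.

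Whether the effect of CR differed between the days was tested as an interaction. In limma, 0 of the 10 genes passed (0.00944% of all genes did), 3 had an unadjusted p under 0.05 (3.46% of all genes), and voom on recovered reads called 0. Those 3 were Cyp4a12b, with a day 30 minus day 25 difference of -1.28 (SE 0.46), Cyp4f14, with -0.60 (SE 0.25), and Cyp4v3, with -0.43 (SE 0.19), each at an adjusted p of 0.9995. For Cyp4a12a the difference was -1.50 with an interval from -3.41 to 0.41, and -0.63 without CR mouse 1 of day 30.

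Within CR mice, 0 genes passed between day 30 and day 25 in limma (0.142% of all genes), 0 had an unadjusted p under 0.05 (8.66% of all genes), and voom called 0. Within Con mice, 0 passed (0% of all genes), 5 had an unadjusted p under 0.05 (7.22% of all genes), and voom called 0. Of those 5, Cyp4a14 and Cyp4a10 were lower at day 30, by log2 differences of -0.73 and -0.70, and Cyp4a12b, Cyp4f14 and Cyp4v3 were higher, by 0.85, 0.51 and 0.38, with adjusted p between 0.556 and 0.649. The mean of Cyp4a12b was 22.5 ± 2.96 in Con at day 25 and 45.4 ± 22.3 at day 30, beside 4.18 ± 1.11 and 2.91 ± 1.08 in CR.

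As a pool, the FPKM of the 10 genes summed to 1479, 1515 and 2493 in Con and 1305, 1277 and 1743 in CR at day 25, and to 1067, 1494 and 1555 in Con and 1233, 1185 and 1221 in CR at day 30. The groups overlapped at both days. Cyp4a14 and Cyp4a10 together made up 76.2% ± 8.46 of the pool in Con and 74.7% ± 7.30 in CR at day 25, and 60.2% ± 4.82 and 74.1% ± 1.85 at day 30. The share of Cyp4a12a and Cyp4a12b was 4.57% ± 1.8 in Con and 1.47% ± 1.08 in CR at day 25, and 10.6% ± 2.70 and 1.17% ± 0.804 at day 30. The Cyp4f genes held 8.62% ± 2.89 and 14.2% ± 3.74 at day 25, and 12.7% ± 2.69 and 14.5% ± 0.59 at day 30. These sums and shares are given without a test, and the shares of a pool are not independent of each other. In bulk liver, fewer cells of a type and less RNA per cell cannot be told apart.

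**Figure D4:**
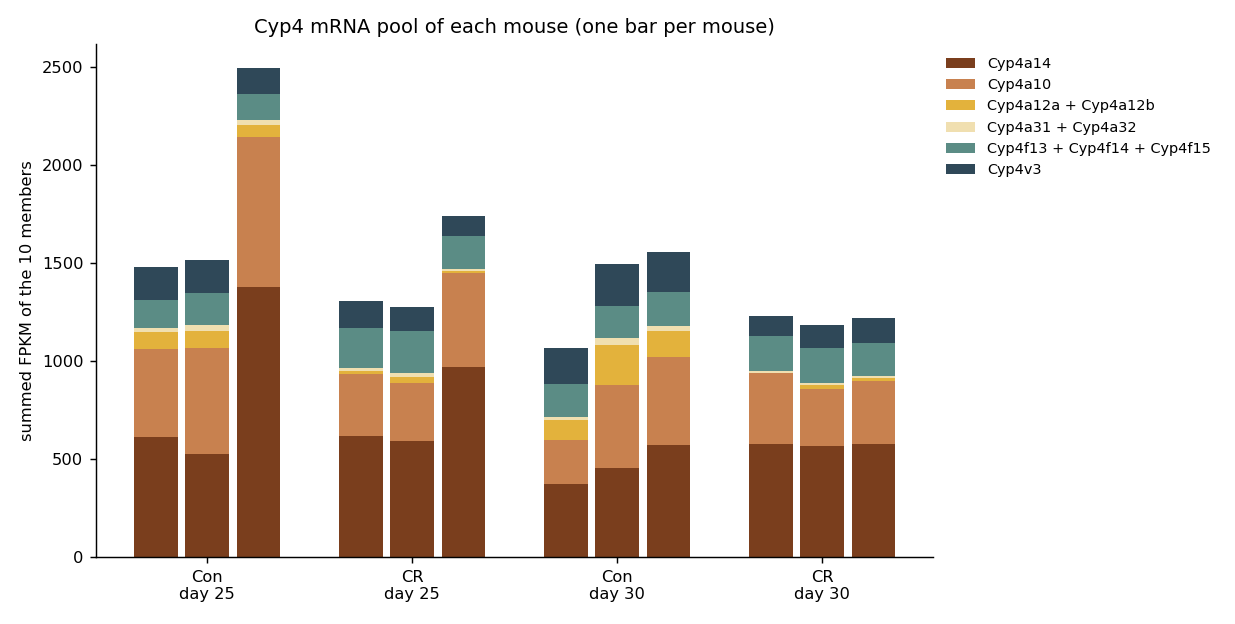
Summed FPKM of the 10 Cyp4 genes (vertical axis, from 0) with 1 bar per mouse, stacked by gene or group of genes, for Con and CR mice at days 25 and 30. Cyp4a14 and Cyp4a10 fill most of every bar, and the yellow band of Cyp4a12a with Cyp4a12b is thinner in CR mice than in Con mice of the same day.

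The table listed 13 further Cyp4 rows, of which 11 stayed under the filter, at an FPKM of at most 0.693 in any library. The other 2 were expressed at a low level. Cyp4f17 was at 4.59 ± 0.644 in Con and 4.09 ± 0.713 in CR at day 25 and at 4.18 ± 0.340 and 2.18 ± 0.218 at day 30, where its log2 fold change was -0.71 (SE 0.12, adjusted p = 0.00243 from limma). Cyp4b1, better known from lung, was at 3.46 ± 0.598 in Con and 6.21 ± 1.02 in CR at day 30, with a log2 fold change of 0.69 (SE 0.18, adjusted p = 0.0218). At day 25 the adjusted p was 0.517 for Cyp4f17 and 0.326 for Cyp4b1.

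Genes around the omega-oxidation pathway were read from 10 lists written by symbol, with earlier results of these data known. Some of the lists share genes. The shares of all genes called were 0.84% higher and 0.642% lower at day 25, and 0.925% and 1.28% at day 30. Of 12 tested genes that donate electrons to P450 enzymes or oxidize the resulting alcohols and aldehydes, 1 was called higher at each day and 0 lower, with a median log2 fold change of 0.26 at day 25 and 0.17 at day 30. The called gene was Por, the reductase that feeds electrons to microsomal P450 enzymes, at 179, 326 and 345 in Con and 565, 585 and 658 in CR at day 25, and at 163, 191 and 148 in Con and 559, 513 and 504 in CR at day 30. The Por groups were far apart at both days, with log2 fold changes of 1.14 (SE 0.20, adjusted p = 0.00608 from limma) and 1.65 (SE 0.20, adjusted p = 0.000412).

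Among 38 tested PPAR-alpha targets outside Cyp4, 2 were called higher and 0 lower at day 25, and 3 higher and 0 lower at day 30. By the adjusted p alone 6 were higher and 3 lower at day 25, and 7 higher and 7 lower at day 30, where 5.6% and 9.34% of all genes at day 25 and 8.33% and 16.4% at day 30 were higher and lower. The list medians were 0.06 and -0.02. The called genes were Plin5, a lipid droplet coat protein (1.28, SE 0.21, adjusted p = 0.00358 from limma at day 25), Pdk4, a brake on pyruvate oxidation (1.03, SE 0.29, adjusted p = 0.0304 at day 30), and the peroxisomal acyl-CoA thioesterases Acot3 (1.43 and 2.78, adjusted p = 0.0563 and 0.0014) and Acot4 (1.04, adjusted p = 0.00804 at day 30). Of 13 tested genes for the receptor, its partners and coactivators, 0 were called at day 25 and 1 at day 30, the coactivator Ppargc1a, which was higher (1.10, SE 0.24, adjusted p = 0.00998). Ppara itself, named after its values were seen, was at 55.3 ± 2.79 in Con and 81.5 ± 14.0 in CR at day 25 (log2 fold change 0.54, adjusted p = 0.0469) and at 59.7 ± 8.11 and 66.4 ± 11.0 at day 30 (0.15, adjusted p = 0.542).

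Of 32 tested genes that activate dicarboxylic acids or oxidize them in peroxisomes, 1 was called higher and 1 lower at day 25, and 3 higher and 2 lower at day 30. By the adjusted p alone, 3 were higher and 2 lower at day 25, beside 5.6% and 9.34% of all genes. At day 30, 5 were higher and 9 lower, beside 8.33% and 16.4%. The genes called lower at both thresholds were Crot, the peroxisomal carnitine octanoyltransferase (-1.54, SE 0.14, adjusted p = 0.000281 from limma at day 25 and -1.89, SE 0.14, adjusted p = 1.68e-05 at day 30), and Nudt7, a peroxisomal CoA diphosphatase (-1.51, SE 0.49, adjusted p = 0.0528 at day 30). Those called higher were Acot3 and Acot4, which the list shares with the PPAR-alpha targets, and Abcd2, a peroxisomal fatty acid transporter (1.09, SE 0.27, adjusted p = 0.0172 from limma at day 30). Acot3 and Abcd2 also stand in the female-predominant list and Nudt7 in the male-predominant list. Of 15 tested genes of eicosanoid supply and turnover, 0 were called at either day, with 1 higher and 1 lower by the adjusted p at day 25 and 1 higher and 3 lower at day 30, beside 5.6%, 9.34%, 8.33% and 16.4% of all genes.

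Because Cyp4a12 genes are known for their male bias, genes with a sex-biased level in mouse liver were also read. These lists, too, were written with earlier results of these data known, and a link to the Cyp4a12 values was not tested. Of 18 tested male-predominant genes, 7 were called lower at day 25 and 15 at day 30, with 0 called higher and medians of -1.02 and -2.02. The lowest were Mup20 (-2.76), Serpina1e (-2.71) and Mup7 (-2.51) at day 25, and Serpina1e (-6.51), Selenbp2 (-6.13) and Mup7 (-5.28) at day 30. Of 15 tested female-predominant genes, 8 were called higher at day 25 and 13 at day 30, with 0 lower and medians of 1.21 and 1.88. Among those called were Cyp2b9 (5.09 and 7.01), Cyp2c40 (2.34 at day 25) and Cyp2b13 (2.88 at day 30). Of 14 tested genes of growth hormone and androgen signalling, 0 were called at either day. By the adjusted p alone, 1 at day 25 and 2 at day 30 were lower, beside 9.34% and 16.4% of all genes.

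**Figure D5:**
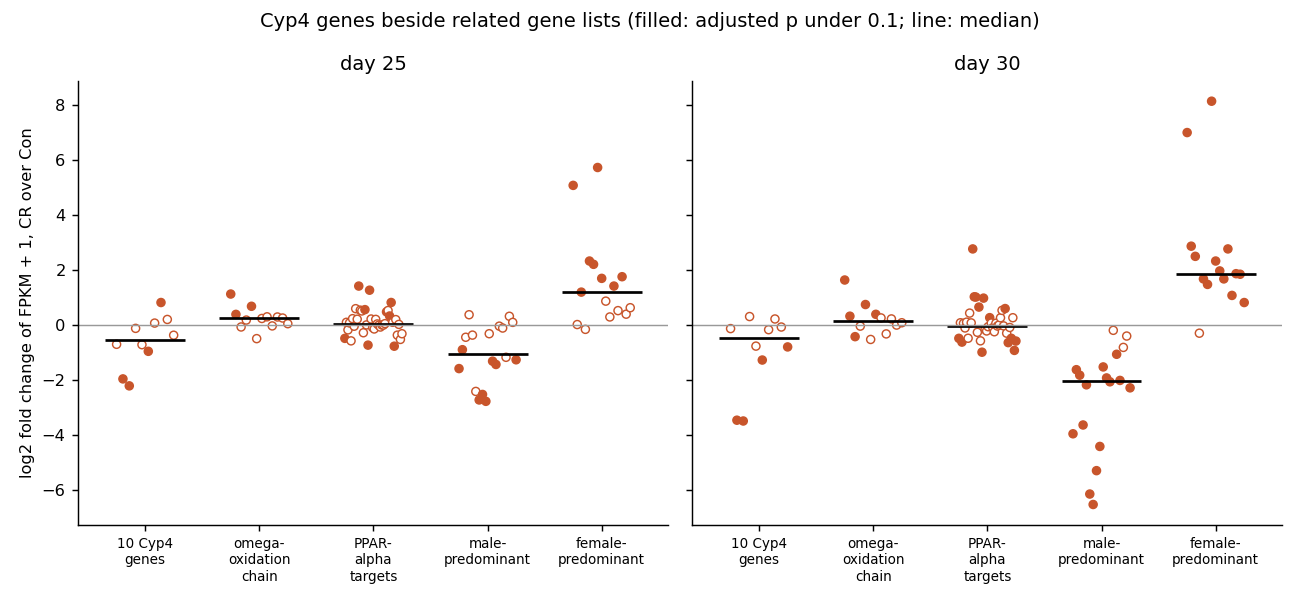
Log2 fold change of FPKM + 1 in CR over Con mice (vertical axis) at day 25 and day 30 for the 10 Cyp4 genes and for the tested genes of 4 lists, with a point per gene, filled where the adjusted p was under 0.1, and a line at the median. The male-predominant list had medians of -1.02 and -2.02, the female-predominant list 1.21 and 1.88, and the PPAR-alpha targets 0.06 and -0.02.

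Lobular position and cell make-up were read in the same way. Of 11 tested pericentral genes, 4 were higher and 1 lower by the adjusted p at day 25 and 0 and 1 at day 30, and of 12 periportal genes, 1 was higher and 1 lower at day 25 and 4 higher and 0 lower at day 30, where Sds and Pck1 were called higher. Among all genes, 5.6% were higher and 9.34% lower by the adjusted p at day 25, and 8.33% and 16.4% at day 30. The 6 hepatocyte markers summed to between 45636 and 52276 in Con and 50937 and 54324 in CR at day 25, and to between 38895 and 47155 in Con and 54157 and 64339 in CR at day 30, when CR mice had less Cyp4a12a, Cyp4a12b, Cyp4a32 and Cyp4v3. At day 30 Alb (0.64) and Cps1 (0.48) of this list were higher by the adjusted p and Serpina1c (-0.81) was lower. The 5 macrophage markers summed to 33.3 to 54.9 in Con and 21.5 to 28.5 in CR at day 25. At day 30 they summed to 29.2 to 43.6 and 29.5 to 39.0. By the adjusted p, Cd5l (-0.78), Clec4f (-0.67) and Vsig4 (-0.71) were lower at day 25 and Marco (0.79) was higher at day 30. The 5 stellate cell markers summed to 49.1 to 57.8 and 59.7 to 63.7 at day 25 and 45.2 to 54.7 and 62.0 to 78.6 at day 30. Reln (0.51 and 0.46) was higher by the adjusted p at both days and Dcn (0.42) at day 30. The 5 sinusoidal endothelial markers summed to 31.9 to 47.2 in Con and 40.7 to 50.4 in CR at day 25. At day 30 they summed to 30.2 to 33.7 and 41.3 to 46.7. Stab2 (0.40) was higher by the adjusted p at day 25, and Oit3 (0.64), Clec4g (0.44) and Stab2 (0.36) at day 30. Alas2, of 3 erythroid markers, was lower by the adjusted p at both days (-0.69 and -1.49). The part of these shifts in the Cyp4 values was not tested.

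The genes whose log2 level followed a Cyp4 gene most closely over the 12 libraries were listed for 3 of them as a description, with other Cyp4 genes left out. For Cyp4a12a they were C6, a complement component (Pearson r = 0.965), Epg5 (0.958) and Ccdc25 (0.958). C6, which also stands in the male-predominant list, had log2 fold changes of -1.25 and -2.27 in CR. For Cyp4f14 they were Fdps, an enzyme of the isoprenoid and cholesterol route (0.955), Slc46a3 (0.923) and Tmem97 (0.909), and Fdps was higher by 1.32 at day 25 and 0.33 at day 30. For Cyp4a14 they were Crcp (0.837), Nup62 (0.836) and the microRNA gene Mir343 (0.819). The libraries share diet group and day, and within the 4 groups the r was 0.818 to 0.913 for the genes beside Cyp4a12a, 0.725 to 0.863 for those beside Cyp4f14 and 0.757 to 0.885 for those beside Cyp4a14.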

How the data were processed

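Liver RNA-Seq was available for 12 mice in 4 groups of 3. The authors sequenced all libraries on a single lane, mapped reads to mm10 with BWA and tested genes with DESeq2 (CASAVA 1.8.2, per the labels). Per the file headers, the deposited values are FPKM from reads on exons, made with HOMER, 1 transcript per gene. No column was left unused. Whole reads were recovered from the smallest FPKM differences of each library (100% of 1500 low values per library within 0.1), which gave the depth. Reads limit precision for genes with few of them.

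FPKM are not counts, so log2(FPKM + 1) was fitted with limma 3.58.1 in R 4.3.3 (trend, 4 groups in a single model, 10593 genes that reached an FPKM of 1 in 3 or more libraries). Fold changes are on this scale, which understates changes of low genes. Tests were 2-sided, with Benjamini-Hochberg adjustment over all genes. The script was tested on simulated data. Sequences were compared with Biopython, and tables made with pandas and matplotlib.

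The Cyp4 genes, the gene lists and the tests were chosen with earlier results of these data known. All 10 members are named, with at most 3 called genes per list, day and direction, and 3 genes of closest pattern for Cyp4a14, Cyp4a12a and Cyp4f14. An item under this rule is not reported here. The 3 Con columns of day 30 could be tied to their group but not to single samples, and so carry no replicate number here. At day 25 deviations from the group means had an r of 0.368, 0.306 and, weakest, 0.106 between same-numbered Con and CR mice. Between other numbers it was -0.287 to 0.0134. Deviations cancel within each group, so these r depend on each other, and pairing was not tested. Because pairing was possible, a replicate block was fitted there as an alternative. Other alternatives changed the pseudocount, filter, scaling, moderation, thresholds, mice included and, through voom, the test.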

Additional observations from a re-analysis of the deposited data

How the results depend on the processing

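The number of Cyp4 genes called was 2 at day 25, 3 at day 30, 3 over both days and 0 for the interaction and for each contrast between days. At day 25 it became 4 without a minimum fold change, 1 at an adjusted p under 0.05, 1 without the filter on low values, and 1 to 3 when a mouse was left out. Over both days it became 6 without a minimum fold change. With the replicate block at day 25 the counts were 2 at day 25, 3 at day 30, 3 over both days and 0 in the other contrasts, and the paired fit changed no call at both thresholds. By the adjusted p alone it added Cyp4a10 (0.07834) and Cyp4v3 (0.05451) at day 25 and Cyp4a10 (0.09475) over both days, and it changed no other call of these genes against Con. Of all genes, those called lower at day 25 went from 68 to 150 with a pseudocount of 0.1 and to 183 with voom, and at day 30 from 136 to 238 and 305.

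Of single-gene values under the alternatives, 1320 kept direction and call, 6 gained and 6 lost the call, and 28 changed sign, each of a gene that was not called in that comparison. Median-ratio scaling gave 0.02061 for Cyp4f15 at day 30, -0.01944 for Cyp4f13 between days in Con and 0.02733 for Cyp4f13 over both days, and quantile normalization gave -0.007818 for Cyp4f13 between days in Con. When a mouse was left out, Cyp4a14 at day 25 ranged from -0.378 to 0.3181, Cyp4a10 at day 30 from -0.4298 to 0.0583, Cyp4f13 over both days from -0.08141 to 0.009102 and the interaction of Cyp4a31 from -0.4399 to 0.4033. Between days in CR, the range was -0.2651 to 0.07894 for Cyp4a10, -1.157 to 0.2428 for Cyp4a12a, -0.3144 to 0.03956 for Cyp4f14 and -0.1597 to 0.04147 for Cyp4v3. Between days in Con, it was -0.7689 to 0.07434 for Cyp4a31, -0.2948 to 0.1869 for Cyp4a32, -0.07259 to 0.1311 for Cyp4f13 and -0.0165 to 0.1571 for Cyp4f15. Summing near copies moved the log2 ratio of mean FPKM at day 30 from -1.436 for Cyp4a32 and -1.087 for Cyp4a31 to -0.2244, a sum that is mostly Cyp4a10, and that of Cyp4a12b at day 25 from -2.429 to -1.957. The cause of these changes was not tested. With 3 mice a group and few reads for Cyp4a31 and for the Cyp4a12 genes in CR, small differences were not detectable.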
